A study of Mus musculus with 20 samples.

Results

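The triglyceride synthesis enzymes described here are 9 genes chosen by name: Gpam, Gpat4, Agpat2, Agpat3, Lpin1, Lpin2, Dgat1, Dgat2 and Mogat1. All 9 were found among the 25238 genes listed in both deposited count tables, and all 9 passed the filter on low counts in every fit. The data are RNA-seq read counts per gene from 20 livers of male C57BL/6J mice. At 8 weeks of age each mouse received, into a vein, an AAV8 vector, a virus used to carry genes into liver cells, and was then kept on a diet labelled HF/HS until 25 weeks of age. In the Pklr vectors the insert was driven from the thyroxine binding globulin promoter, a hepatocyte promoter. A hairpin RNA that targets Pklr was given to 5 mice (shPKLR), and 5 control mice received a hairpin against firefly luciferase (shLUC). The Pklr cDNA was given to another 5 (PKLR), with 5 mice given GFP as their control (GFP). Pklr encodes the pyruvate kinase of liver, which ends glycolysis, and the study asked what it does in fatty liver disease. No group without a vector or without the diet was analysed here, so every value below is from an injected mouse on that diet.

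Triglyceride is built on a glycerol backbone in a short series of steps. A glycerol-3-phosphate acyltransferase adds the first fatty acid, an acylglycerol-phosphate acyltransferase adds the second to give phosphatidic acid, a lipin removes the phosphate to give diacylglycerol, and a diacylglycerol acyltransferase adds the last. Gpam and Gpat4 encode acyltransferases of the first step, in the outer mitochondrial membrane and the endoplasmic reticulum, and Agpat2 and Agpat3 encode enzymes of the second. Lpin1 and Lpin2 encode phosphatidate phosphatases, and lipin 1 also acts in the nucleus as a partner of transcription factors. Dgat1 and Dgat2 encode unrelated enzymes of the last step, of which the DGAT2 enzyme is known for using newly made fatty acids in liver. Mogat1 makes diacylglycerol from monoacylglycerol by another route and is known for being raised in fatty mouse liver.

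Promoter sequences of 6 of the 9 genes were matched by symbol in RefSeq (GRCm38.p6): Gpam, Agpat2, Agpat3, Lpin1, Lpin2 and Mogat1. The sequences of Gpam and Mogat1 are shown because the ratio of the shPKLR to the shLUC mean was lowest for these members, at 0.33 and 0.43. Each runs 5′ to 3′ along the gene's own strand from 250 bases before to 50 bases after a transcription start. Capitals mark a match to the CCAAT box, the short element bound by the factor NF-Y. Both matches read ATTGG here because the box lies on the opposite strand. The match lies 74 bases before the start in the Gpam window and 25 bases after it in the Mogat1 window.
Gpam, upstream start (chr19:55127189-55127488, minus strand): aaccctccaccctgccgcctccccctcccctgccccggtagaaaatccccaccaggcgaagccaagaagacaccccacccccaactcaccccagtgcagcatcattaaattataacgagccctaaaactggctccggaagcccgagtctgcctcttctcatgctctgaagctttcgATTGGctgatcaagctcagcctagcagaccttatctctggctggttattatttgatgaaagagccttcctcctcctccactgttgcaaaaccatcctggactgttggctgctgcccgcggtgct
Mogat1 (chr1:78510810-78511109, plus strand): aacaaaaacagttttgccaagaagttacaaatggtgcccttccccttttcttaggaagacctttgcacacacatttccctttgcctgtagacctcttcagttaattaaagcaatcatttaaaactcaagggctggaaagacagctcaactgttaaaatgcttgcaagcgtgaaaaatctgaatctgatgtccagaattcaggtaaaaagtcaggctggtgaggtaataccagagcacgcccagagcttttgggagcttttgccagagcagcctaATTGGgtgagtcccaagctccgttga
The patterns searched, on both strands, were CCAAT, the E-box CACGTG, the sterol response element TCACNCCAC, and DR1 and DR4, direct repeats of the nuclear receptor motif AGGTCA spaced by 1 and by 4 bases. CCAAT occurred in 37.4% of all 32851 promoter windows of this length. Among the members it occurred in the upstream Gpam window, in the Mogat1 window and in 1 of 3 Lpin2 windows. Another of the Lpin2 windows held a CACGTG 9 bases before its start, a pattern found in 7.15% of all windows. TCACNCCAC (1.24% of windows) and the DR1 and DR4 repeats (0.0396% and 0.0152%) were not in the members' windows. A match describes letters only and is not evidence of binding.

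The smallest of the 20 libraries held 29933820 counts and the second largest 45413803, while shPKLR replicate 4 held 167891680. Pklr followed the labels. It was at 376, 536, 355, 493 and 634 CPM in the 5 shLUC livers and at 72.0, 53.0, 41.0, 25.4 and 83.3 CPM in the 5 shPKLR livers. It was at 64.4, 103, 136, 144 and 144 CPM with GFP and at 769, 839, 913, 378 and 808 CPM with PKLR, without overlap in either experiment. CPM here means counts per 1000000 reads with TMM scaling over all 20 libraries, and values are listed in the order of replicates 1 to 5 throughout. The hepatocyte genes Alb, Apoa1, Ttr, Serpina1c, Cps1, Tat, Hpd and Fabp1 were all expressed, with a summed level between 66080 and 116335 CPM over the 20 livers.

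Levels of different members were compared per length, as TPM (counts per base of exon, scaled to 1000000 in each library). Dgat2 and Agpat2 stood at the top in every group: with shLUC they were at 243 ± 35.4 and 198 ± 14.1 TPM (SD, n = 5), and their ranges over livers overlapped in each of the 4 groups. Below them with shLUC came Gpam at 48.6 ± 28.0, Agpat3 at 45.3 ± 5.22, Gpat4 at 25.2 ± 5.75 and Lpin2 at 24.8 ± 7.17 TPM (SD, n = 5 each). In the shLUC group the ranges of Gpam and Agpat3 overlapped, as did those of Gpat4 and Lpin2, while Agpat3 lay above Gpat4 in all livers. Lpin1 (12.0 ± 5.08 TPM) and Dgat1 (9.28 ± 1.20 TPM) followed, again with overlapping ranges, and Mogat1 was last at 2.35 ± 0.943 TPM (SD, n = 5 each), below Dgat1 without overlap in every group. Place in the order was least fixed for Gpam, which had rank 3 with shLUC, rank 4 with PKLR and rank 6 with both shPKLR and GFP. With GFP it lay below Lpin2 without overlap, at 26.0 ± 4.21 against 37.5 ± 5.80 TPM (SD, n = 5 each). In the shPKLR, GFP and PKLR groups the other neighbours in the order overlapped, except that Agpat2 lay above Agpat3 in all 3 groups and that Mogat1 stood apart at the bottom. The members' summed level was 609 ± 84.2 TPM with shLUC, 432 ± 97.7 with shPKLR, 514 ± 65.9 with GFP and 553 ± 80.4 with PKLR (SD, n = 5 each), most of it from Dgat2 and Agpat2.

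**Figure D1:**
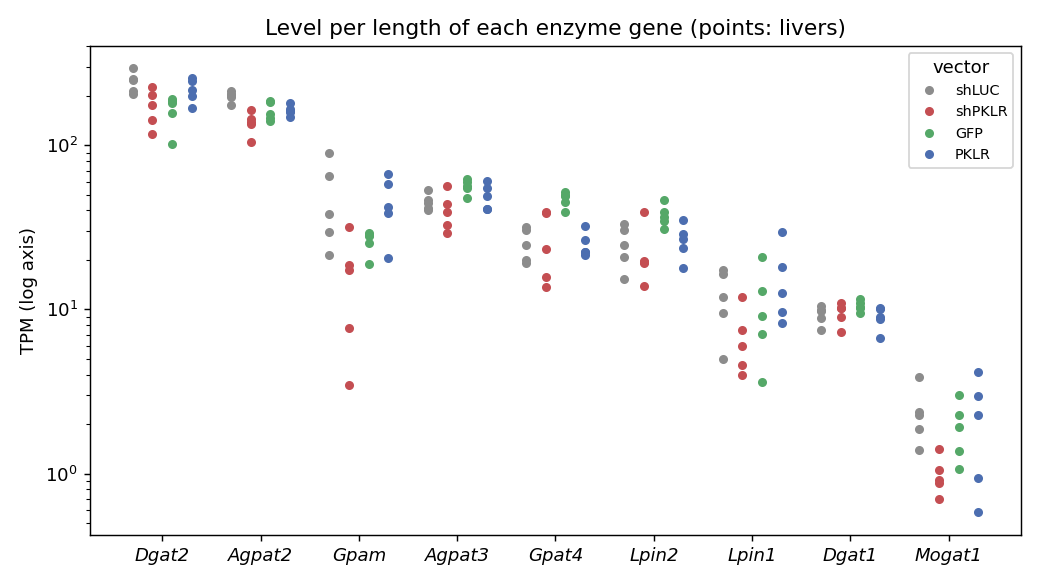
Level per length (TPM, log axis) of the 9 enzyme genes, with 1 point per liver and the 4 vectors in colour; genes are ordered by their shLUC mean. Dgat2 and Agpat2 form the top pair and Mogat1 lies below the others within each vector group, while the points of Gpam, Lpin1 and Mogat1 are the most spread.

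For the first step, Gpat4 fell with PKLR, and Gpam passed the test of the difference between the experiments. Gpam (ENSMUSG00000024978, chromosome 19, 55067268 to 55127238, minus strand, GRCm38) was at 106, 282, 120.3, 161 and 330.4 CPM in shLUC livers and at 33.7, 84.8, 74.1, 17.2 and 117 CPM in shPKLR livers. From lowest to highest the shLUC livers spanned 3.12 times and the shPKLR livers 6.78 times, and the groups overlapped by 1 liver, shPKLR replicate 5. The means were 199.9 ± 101 and 65.3 ± 40.0 CPM (SD, n = 5 each), with an edgeR log2 fold change of -1.62 (SE 0.47, adjusted p = 0.22). In the other experiment Gpam was at 61.0, 99.7, 106, 89.0 and 109.9 CPM with GFP and at 229, 175, 210.0, 162 and 93.1 CPM with PKLR. Here 4 PKLR livers lay above every GFP liver, and PKLR replicate 5 lay among the controls. The log2 fold change was 0.91 (SE 0.23, adjusted p = 0.069) by edgeR, which does not pass. Without PKLR replicate 5 it was 1.07 (adjusted p = 0.021), and over the fits with 1 library left out the adjusted p ran from 0.021 to 0.145. With all livers DESeq2 gave an adjusted p of 0.0028, and limma-voom did not call Gpam. When the PKLR effect was set against the shPKLR effect in a model of all 20 livers, the difference was 2.52 (SE 0.57, adjusted p = 0.015) by edgeR, so the effects of the 2 vectors on Gpam differed. In whole liver RNA a lower level can come from fewer cells of a type or from less RNA per cell, and these cannot be told apart.

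Gpat4 (ENSMUSG00000031545, chromosome 8, 23171265 to 23208346, minus strand) ran the other way when Pklr was raised. It was at 169, 133, 171, 172 and 193 CPM with GFP and at 111, 93.1, 96.6, 93.5 and 96.6 CPM with PKLR, so every PKLR liver was below every GFP liver. Gpat4 fell, with means of 168 ± 21.7 CPM with GFP and 98.1 ± 7.29 with PKLR (SD, n = 5 each) and an edgeR value of -0.76 (SE 0.10, adjusted p = 0.0055) on the log2 scale. The call held in each of the 10 fits with 1 library left out, with values from -0.83 to -0.70. In the knockdown it was at 99.6, 108, 128, 81.7 and 113 CPM with shLUC and at 60.3, 114, 156, 78.6 and 144 CPM with shPKLR. The shPKLR livers reached both below and above the controls, and the log2 fold change of 0.05 (SE 0.24, adjusted p = 0.92) changed sign with the setting, from -0.10 to 0.21 with 1 library left out. Its difference between the experiments was -0.83 (SE 0.27, adjusted p = 0.070) by edgeR and did not pass. Without shPKLR replicate 1 it was -0.99 (adjusted p = 0.015) and without shPKLR replicate 4 it was -0.93 (adjusted p = 0.046). With 1 library left out the adjusted p of this difference ran from 0.015 to 0.12.

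**Figure D2:**
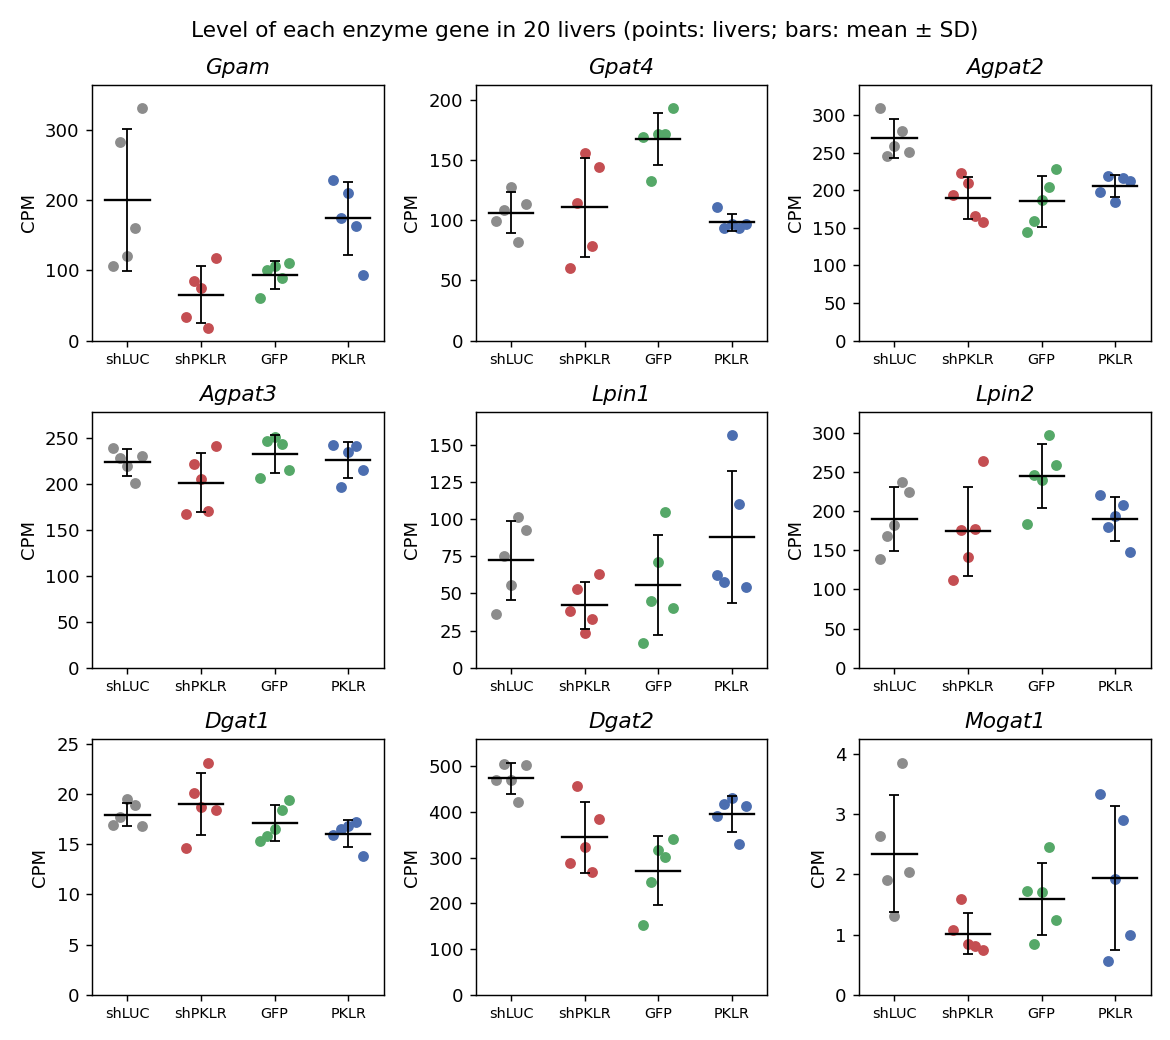
CPM of each of the 9 genes in the 4 vector groups (1 point per liver, bar for the mean, whiskers for the SD, n = 5; axes start at 0). Gpat4 in the PKLR group and Agpat2 in the shPKLR group lie apart from their controls. Relative to their means, Gpam, Lpin1 and Mogat1 vary most between livers within the shLUC and PKLR groups. With GFP Gpam varies less than Dgat2, and with shPKLR Mogat1 varies less than Gpat4.

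For the second step, Agpat2 passed the test of the difference between the experiments and Agpat3 did not. Agpat2 (ENSMUSG00000026922, chromosome 2, 26593057 to 26604417, minus strand), whose loss causes a lipodystrophy, was at 309, 246, 259, 279.6 and 251 CPM with shLUC and at 194, 224, 209.7, 165 and 157 CPM with shPKLR. All 5 shPKLR livers lay below all 5 shLUC livers, yet the log2 fold change of -0.51 (SE 0.13, adjusted p = 0.19) did not pass edgeR's threshold over 15611 genes, while DESeq2 gave an adjusted p of 0.014. With GFP and PKLR the ranges were 145 to 229 and 184 to 219 CPM and overlapped (log2 fold change 0.17, SE 0.12, adjusted p = 0.47). The difference between the experiments was 0.66 (SE 0.18, adjusted p = 0.033) by edgeR, and with 1 library left out its adjusted p ran from 0.014 to 0.060. The call was lost without shLUC replicate 1 or 4, GFP replicate 1 or 2, or PKLR replicate 4 or 5 (adjusted p between 0.051 and 0.060). The Agpat2 exons share 64 bases with those of Egfl7, an endothelial gene on the opposite strand, whose CPM were 14.3 ± 3.26 in shLUC and 18.5 ± 8.66 in shPKLR livers (SD, n = 5 each). The Egfl7 medians were 13.1 and 14.2 CPM, and the highest shPKLR liver was at 33.6 CPM. Agpat3 (ENSMUSG00000001211, chromosome 10, 78269178 to 78352489, minus strand) was at 224 ± 14.7, 201 ± 32.3, 233 ± 20.3 and 226 ± 19.7 CPM (SD, n = 5 each) with shLUC, shPKLR, GFP and PKLR. Its log2 fold changes were -0.16 (SE 0.13, adjusted p = 0.52) in the knockdown and -0.03 (SE 0.09, adjusted p = 0.90) in the overexpression, with a difference of 0.11 (SE 0.15, adjusted p = 0.66). The overexpression value changed sign without GFP replicate 3 or PKLR replicate 2.

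Neither lipin separated the groups in either experiment. Lpin1 (ENSMUSG00000020593, chromosome 12, 16535669 to 16610966, minus strand) was at 36.0, 75.2, 56.0, 101 and 92.6 CPM with shLUC and at 38.0, 53.0, 23.1, 33.0 and 63.0 CPM with shPKLR. It was at 16.9, 45.0, 71.5, 105 and 39.9 CPM with GFP and at 62.4, 57.5, 156, 110.4 and 54.2 CPM with PKLR. The lowest and the highest GFP livers stood 6.22 times apart, and the groups overlapped in both experiments. Log2 fold changes were -0.79 (SE 0.30, adjusted p = 0.29) and 0.68 (SE 0.46, adjusted p = 0.46) by edgeR, with a difference of 1.45 (SE 0.57, adjusted p = 0.12). Without PKLR replicate 3 the overexpression value was 0.36, and without GFP replicate 4 it was 1.04. Lpin2 (ENSMUSG00000024052, chromosome 17, 71182560 to 71249817, plus strand) had group levels of 189.7 ± 40.3 (shLUC), 174 ± 56.8 (shPKLR), 245 ± 40.7 (GFP) and 189.7 ± 28.1 CPM (PKLR; SD, n = 5 each). Its edgeR log2 fold changes were -0.14 (SE 0.22, adjusted p = 0.76) in the knockdown and -0.35 (SE 0.13, adjusted p = 0.17) in the overexpression, with a difference of -0.24 (SE 0.27, adjusted p = 0.59). With 1 library left out the knockdown value ran from -0.33 (without shPKLR replicate 5) to -0.012 (without shPKLR replicate 1), and the difference from -0.36 (without shPKLR replicate 1) to -0.034 (without shPKLR replicate 5).

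For the last step, Dgat2 passed the test of the difference between the experiments and Dgat1 did not. Dgat2 (ENSMUSG00000030747, chromosome 7, 99153658 to 99182719, minus strand) was at 471, 506, 471, 421 and 502 CPM with shLUC and at 288, 457, 323, 269 and 384 CPM with shPKLR. Only shPKLR replicate 2 reached into the control range, and the log2 fold change was -0.47 (SE 0.15, adjusted p = 0.25) by edgeR. With GFP it was at 152, 246, 316, 301 and 342 CPM and with PKLR at 391, 417, 429.9, 329 and 413 CPM. Again a single treated liver, PKLR replicate 4, lay within the control range, and the log2 fold change was 0.56 (SE 0.18, adjusted p = 0.13) by edgeR. Neither effect passed alone, while their difference of 1.01 (SE 0.25, adjusted p = 0.021) did, with values from 0.87 to 1.13 and an adjusted p of at most 0.043 when each library was left out in turn. Dgat1 (ENSMUSG00000022555, chromosome 15, 76502015 to 76511953, minus strand) stayed between 13.8 and 23.1 CPM in all 20 livers. Its group values were 18.0 ± 1.18, 19.0 ± 3.08, 17.1 ± 1.76 and 16.1 ± 1.34 CPM (SD, n = 5 each) in the order shLUC, shPKLR, GFP and PKLR. The log2 fold changes were 0.07 (SE 0.12, adjusted p = 0.77) in the knockdown, which changed sign without shPKLR replicate 4, and -0.08 (SE 0.09, adjusted p = 0.67) in the overexpression. The difference between the Dgat1 effects was -0.18 (SE 0.15, adjusted p = 0.47), with a 95% interval from -0.47 to 0.12.

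Mogat1 (ENSMUSG00000012187, chromosome 1, 78510991 to 78538173, plus strand) was the least abundant member, resting on 19 to 136 counts per library. It was at 2.63, 1.90, 1.31, 3.86 and 2.04 CPM with shLUC and at 1.07, 1.60, 0.852, 0.813 and 0.748 CPM with shPKLR. Of the shPKLR livers 4 lay below every shLUC liver, and replicate 2 did not. The log2 fold change of -1.23 (SE 0.31, adjusted p = 0.19) did not pass by edgeR, while DESeq2 gave an adjusted p of 0.014. It was at 1.72, 0.847, 1.70, 2.45 and 1.25 CPM with GFP and at 3.33, 0.560, 1.93, 2.91 and 0.986 CPM with PKLR, where the treated livers spanned the whole control range (log2 fold change 0.31, SE 0.44, adjusted p = 0.75). Without PKLR replicate 1 this value was 0.02, and without PKLR replicate 2 it was 0.55. The difference between the experiments was 1.52 (SE 0.56, adjusted p = 0.10) and did not pass. Without PKLR replicate 2 it was 1.76 (adjusted p = 0.047), the lower end of a range to 0.18 with 1 library left out. The Mogat1 exons share 200 bases with BC035947 on the opposite strand, which had 1 to 38 counts per library.

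Of the 9 members, edgeR called 0 in the knockdown, where 0.00641% of all 15611 genes tested were called. At an unadjusted p under 0.05 there were 5 members, all lower with shPKLR (15% of all genes in either direction), and DESeq2 called 2 and limma-voom 0. In each comparison DESeq2 also called many more of all genes than edgeR did, as counted in the last section. Its calls of members and of other listed genes are to be read beside those counts. Altogether 7 members were below 0 there, as were 47.2% of all genes. In the overexpression edgeR called 1 member, Gpat4, where 2.03% of 15842 genes were called and 0.846% were called lower. At an unadjusted p under 0.05 there were 4 members, 2 lower and 2 higher (18.8% of all genes), and 4 members lay below 0 (48.9%). In the difference between the experiments it called 3 members, Gpam, Agpat2 and Dgat2, all with a positive value, which means that the PKLR effect exceeded the shPKLR effect. There 5.5% of 16407 genes were called, and 2.75% were called with a positive value. The median log2 fold change of the members was -0.47 in the knockdown and 0.17 in the overexpression, against 0.02 and 0.0057 over all genes tested. Without PKLR replicate 1 the members' overexpression median was 0.02. Of the 9 members 5 were below 0 in the knockdown and above 0 in the overexpression (Gpam, Agpat2, Lpin1, Dgat2 and Mogat1), a pattern held by 31.3% of 15445 genes tested in both. The other 4 were Gpat4 and Dgat1, with the signs turned, and Agpat3 and Lpin2, below 0 in both. Groups without overlap were found for 1 member in each experiment, Agpat2 (2.03% of genes were lower without overlap) and Gpat4 (1.93%).

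**Figure D3:**
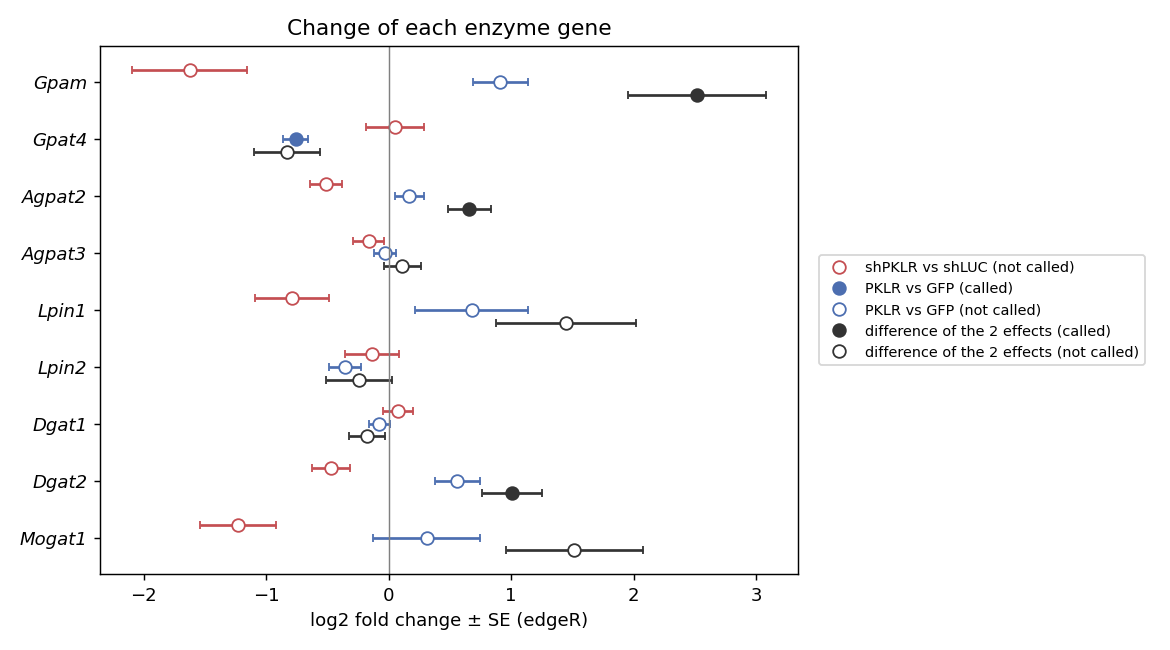
Log2 fold change with its SE for each gene in the knockdown (shPKLR against shLUC), the overexpression (PKLR against GFP) and the difference of the second less the first. Filled points passed an adjusted p of 0.05 in edgeR: Gpat4 in the overexpression, and Gpam, Agpat2 and Dgat2 in the difference.

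Ratios of the 2 enzymes of a step, taken within each liver and per length, do not depend on the scaling of the libraries. They are given as a description, with no test. Gpam over Gpat4 was 1.07, 2.61, 0.943, 1.97 and 2.93 in shLUC livers and 0.560, 0.745, 0.476, 0.220 and 0.814 in shPKLR livers. It was 0.362, 0.752, 0.620, 0.520 and 0.571 with GFP and 2.07, 1.88, 2.18, 1.74 and 0.967 with PKLR. The ratio was thus lower in every shPKLR liver than in any shLUC liver, and higher in every PKLR liver than in any GFP liver. Across the experiments the GFP controls (0.362 to 0.752) lay within the shPKLR range (0.220 to 0.814). Likewise the PKLR livers (0.967 to 2.18) lay within the range of the shLUC controls (0.943 to 2.93). The shift in mean log2 ratio was -1.75 in the knockdown (-1.97 to -1.44 with 1 library left out) and 1.63 in the overexpression (1.48 to 1.84). The log2 fold changes in CPM behind these shifts were -1.62 for Gpam and 0.05 for Gpat4 in the knockdown, and 0.91 and -0.76 in the overexpression.

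Dgat2 exceeded Dgat1 per length in every liver. The ratio was 9.84, 15.4, 18.9, 16.2 and 17.4 with GFP and 24.4, 25.0, 25.3, 18.9 and 29.5 with PKLR, which left the groups just apart, with 18.89 as the highest control and 18.94 as the lowest treated liver. With shLUC it was between 22.1 and 29.5 and with shPKLR between 11.5 and 22.5, an overlap by 1 liver, with a shift of -0.55 on the log2 scale. Lpin1 over Lpin2 ran from 0.330 to 0.566 with shLUC, 0.207 to 0.430 with shPKLR, 0.116 to 0.448 with GFP and 0.359 to 1.02 with PKLR, overlapping in both experiments. Agpat2 over Agpat3 overlapped too, with shifts of -0.34 and 0.21 on the log2 scale.

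**Figure D4:**
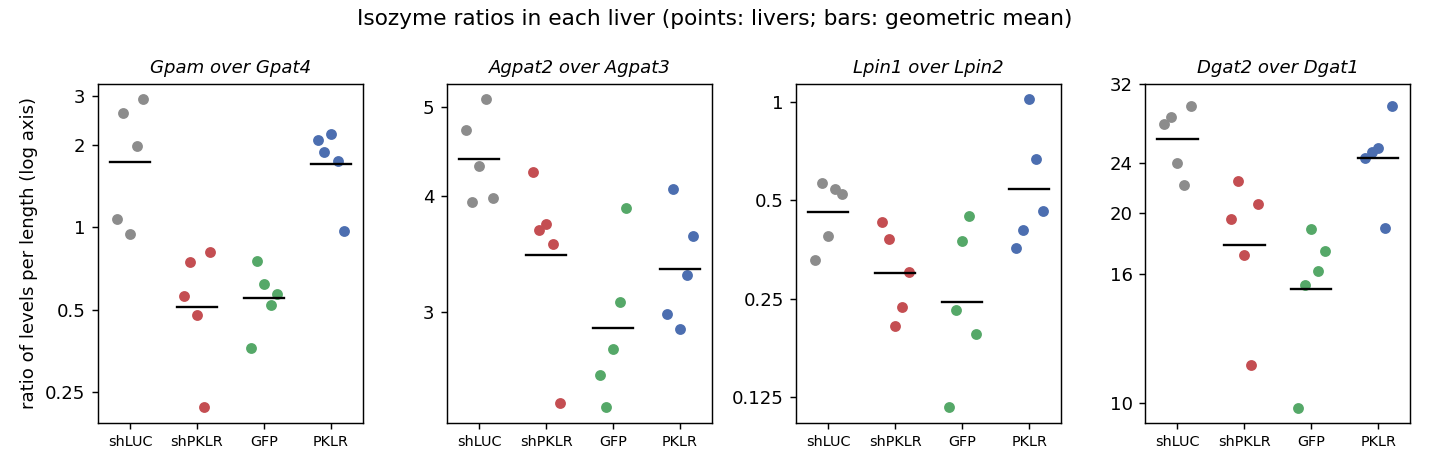
Ratio per length of the 2 enzymes at each of 4 steps (log axes, 1 point per liver, bar for the geometric mean, n = 5 per vector). Gpam over Gpat4 separates the groups in both experiments, from 0.943 to 2.93 with shLUC against 0.220 to 0.814 with shPKLR, and from 0.362 to 0.752 with GFP against 0.967 to 2.18 with PKLR.

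Of the 9 members 3 did not overlap between the control groups, where 7.99% of all 16407 genes tested did not. Dgat2 was between 421 and 506 CPM in shLUC livers and between 152 and 342 CPM in GFP livers, and Agpat2 ran from 246 to 309 CPM with shLUC and from 145 to 229 CPM with GFP, in both cases without overlap. Gpat4 was lower with shLUC (81.7 to 128 CPM) than with GFP (133 to 193 CPM), also without overlap. Pklr differed likewise, at 355 to 634 CPM with shLUC and 64.4 to 144 CPM with GFP. These groups differ in vector, experiment and deposited table, which cannot be told apart, so the difference was not tested. On this common scale Gpat4 and Gpam were at 98.1 ± 7.29 and 174 ± 52.3 CPM with PKLR, beside 106 ± 17.1 and 199.9 ± 101 CPM with shLUC (SD, n = 5 each), with overlapping ranges. Dgat2 reached the shLUC range in 1 PKLR liver, and Agpat2 in none: it ran from 184 to 219 CPM with PKLR.

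Deviations of the members within groups were compared in pairs. With each group's mean taken out, 31 of 36 pairs of members had a positive Pearson correlation of log2 CPM over the 20 livers, with a median of 0.27. The share of positive pairs among other genes was not computed, so this is not shown to be particular to the members. The closest pairs were Lpin1 with Lpin2 (r = 0.66, Spearman rho = 0.66) and Gpam with Agpat3 (r = 0.66, rho = 0.55). Without the 2 livers furthest from the median of the first gene, Lpin1 with Lpin2 was at 0.59 and Gpam with Agpat3 at 0.47, below Gpam with Lpin2 (0.59), Lpin2 with Dgat1 (0.54) and Gpat4 with Agpat3 (0.52). Gpam and Gpat4, which parted between vectors, still correlated at r = 0.57 (rho = 0.65), or 0.41 with 2 livers left out in that way. Agpat2 had r between -0.13 and 0.19 with 7 members and 0.54 with Dgat2, although by rho Dgat1 (0.35) was as close as Dgat2 (0.34). For Mogat1 r ran from -0.07 to 0.33. These are descriptions over livers that share library preparation and scaling.

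**Figure D5:**
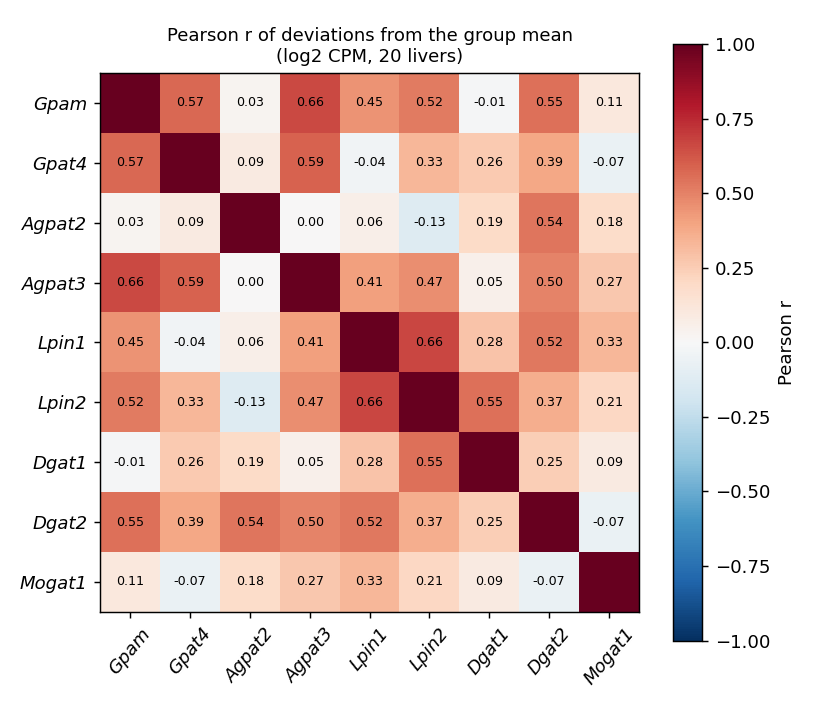
Pearson correlation between members of their deviations from the group mean (log2 CPM, 20 livers; colour from -1 to 1, with the value written in each cell). Lpin1 with Lpin2 and Gpam with Agpat3 reach 0.66, and Agpat2 with Dgat2 is at 0.54.

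Among 10280 named protein-coding genes of at least 2 CPM, those most like each member over the 20 livers were ranked by Pearson r after the mean of each experiment was taken out. For Gpam they were Rmnd5a (r = 0.96), Pank3 (0.96), a pantothenate kinase of coenzyme A synthesis, and Cyb5b (0.94), a mitochondrial cytochrome b5. For Dgat2 they were Mn1 (0.93), Shpk (0.93) and Psmd3 (0.93), and for Gpat4 Slc7a2 (0.88), a transporter of cationic amino acids, Smim13 (0.87) and Sgsm2 (0.85). Agpat2 was most like Tmem14c (0.90), the ceramide synthase gene Cers2 (0.89) and the glutathione transferase gene Mgst1 (0.88). Agpat3 was most like Mboat7 (0.90), which encodes an acyltransferase of phosphatidylinositol, with Wsb2 (0.89) and Sec22c (0.89) next. The genes nearest to Lpin1 were Slc37a4 (0.86), the glucose-6-phosphate transporter, Bhlhe40 (0.81), a repressor linked to the circadian clock, and L3hypdh (0.80). Lpin2 was nearest to Acaa1b (0.86), a peroxisomal thiolase, Mknk2 (0.77) and Frmd4b (0.76). Dgat1 (Npepl1 at 0.83, Ehmt2 at 0.82 and Isy1 at 0.81) and Mogat1 (Smarca4 at 0.82, Vnn1 at 0.81 and Tceal8 at 0.80) had the lowest leading values. These r include the differences between vectors as well as those between livers of 1 group. With the mean of each group taken out instead, the r of the same pairs ran from 0.71 (Mogat1 with Tceal8) to 0.94 (Gpam with Rmnd5a).

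Other genes of the pathway and its branches were also listed. Of 20 further glycerolipid genes 19 were tested, all but Mogat2, and edgeR called 0 in either experiment. Over all genes edgeR called 0.00641% in the knockdown and 2.03% in the overexpression, and 15% and 18.8% had an unadjusted p under 0.05. In the difference 5.5% were called. In the knockdown 12 of the 19 were below 0, with a median log2 fold change of -0.17 (2 lower and 1 higher at an unadjusted p under 0.05); DESeq2 called 2, Acsl3 and Acsl5, and limma-voom 0. In the overexpression 9 were below 0, with a median of 0.0094 (4 lower and 3 higher at an unadjusted p under 0.05); DESeq2 called 2, Acsl4 and Plpp3, and limma-voom 0. The 4 with the smallest p were 3 acyl-CoA synthetase genes, whose products activate fatty acids before they are attached to glycerol, and Plpp3, a lipid phosphate phosphatase. Acsl5 averaged 478 ± 72.9 CPM in shLUC and 289 ± 78.0 in shPKLR livers (SD, n = 5 each), without overlap, with log2 fold changes of -0.74 (SE 0.20, adjusted p = 0.21) in the knockdown and 0.21 (SE 0.11) in the overexpression. It was the only gene of this list called in the difference by edgeR, at 0.92 (SE 0.23, adjusted p = 0.025), and by limma-voom, while DESeq2 called 4 (Acsl3, Acsl5, Plpp2 and Plpp3). Acsl3 was at -0.67 (SE 0.16, adjusted p = 0.18) in the knockdown, also without overlap, and at -0.0039 (SE 0.13) in the overexpression. Acsl4 was at -0.38 (SE 0.28) in the knockdown and -0.42 (SE 0.11, adjusted p = 0.078) in the overexpression, and Plpp3 at -0.45 (SE 0.22) and 0.32 (SE 0.09, adjusted p = 0.097).

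In the phospholipid branch, which uses diacylglycerol and phosphatidic acid for membranes, edgeR called 0 of 18 genes in the knockdown (4 at an unadjusted p under 0.05), as did DESeq2 and limma-voom. In the overexpression edgeR and limma-voom called 1, Chka, and DESeq2 called 3 lower (Chka, Crls1 and Pisd), with 4 at an unadjusted p under 0.05 in edgeR. Over all genes edgeR called 0.00641% in the knockdown and 2.03% in the overexpression, and 15% and 18.8% had an unadjusted p under 0.05. In the difference 5.5% were called. Chka, choline kinase alpha, the first enzyme of phosphatidylcholine synthesis from choline, fell in PKLR livers, to 37.0 ± 8.69 CPM against 81.5 ± 19.5 CPM with GFP (SD, n = 5 each), an edgeR value of -1.13 (SE 0.18, adjusted p = 0.015) on the log2 scale. With shLUC and shPKLR it was at 49.6 ± 10.1 and 55.1 ± 24.8 CPM, with a log2 fold change of 0.14 (SE 0.28). Its difference between the experiments was -1.29 (SE 0.35, adjusted p = 0.037) by edgeR, a call that DESeq2 also made and limma-voom did not. Pisd, which makes phosphatidylethanolamine in mitochondria, was the other gene called there, at -0.47 (SE 0.13, adjusted p = 0.037), and was called by all 3 tools. The median log2 fold changes of the branch were -0.10 in the knockdown and 0.03 in the overexpression. Among 14 regulators of these genes edgeR called 0 in either experiment (3 in the knockdown and 2 in the overexpression at an unadjusted p under 0.05). The shares over all genes are those given above for the branch. Insig1, a sterol-regulated brake on SREBP, was closest, at -1.10 (SE 0.15, adjusted p = 0.051) in the knockdown and 0.78 (SE 0.18, adjusted p = 0.053) in the overexpression by edgeR. DESeq2 called it in both and limma-voom in the knockdown, and neither called another regulator. In the difference it was the 1 regulator called, at 1.85 (SE 0.24, adjusted p = 0.00045). Srebf1 and Mlxipl, the genes of the lipogenic factors SREBP-1 and ChREBP, had values of -0.24 (SE 0.27) and 0.43 (SE 0.26) in the knockdown and 0.25 (SE 0.30) and 0.37 (SE 0.26) in the overexpression. Pparg, which drives Mogat1 and other steatosis genes, was at -0.65 (SE 0.24, adjusted p = 0.28) in the knockdown and -0.03 (SE 0.20) in the overexpression. The other regulators with small p were Insig2, at -0.66 (SE 0.25) in the knockdown, and Fitm2, a gene of lipid droplet formation, at -0.40 (SE 0.17) in the overexpression.

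Adipocytes are known for high Agpat2 and Dgat2, and 2 of the adipocyte genes, Adipoq and Plin1, were higher in 3 livers of the knockdown experiment than in the other 17. The defining adipocyte gene Adipoq was at 3.57 CPM in shPKLR replicate 2, 0.958 CPM in shPKLR replicate 1 and 0.988 CPM in shLUC replicate 3, and at most 0.0980 CPM in the PKLR and 0.0315 CPM in the GFP livers. It was at 0 in 6 of the 20 livers, and Plin1, the gene of the adipocyte droplet protein perilipin, was at 2.50, 0.726 and 0.988 CPM in the 3 livers named and at most 0.0892 CPM elsewhere. Another gene of the list, Cfd, followed no such order: its highest liver was at 4.26 CPM with shLUC, 6.85 with shPKLR, 13.6 with GFP and 16.1 with PKLR. Over the 5 adipocyte genes in both tables, the summed level was 6.27 to 15.5 CPM with shLUC, 7.84 to 29.3 with shPKLR, 10.5 to 19.0 with GFP and 4.65 to 22.7 with PKLR. PKLR replicate 4, at 22.7 CPM, thus summed higher than shPKLR replicate 1 (17.7 CPM) and shLUC replicate 3 (15.5 CPM). The liver with most Adipoq, shPKLR replicate 2, was also the highest of its group in Agpat2, Dgat2 and Mogat1. Neither shPKLR replicate 1 nor shLUC replicate 3 was the highest of its group in any of these genes. In Mogat1 shLUC replicate 3 was the lowest of its group, at 1.31 CPM. Without shPKLR replicate 2, the knockdown log2 fold changes were -0.58 for Agpat2, -0.59 for Dgat2 and -1.44 for Mogat1, each larger in size than with that liver. Leaving out the highest liver of a lowered group makes a fall larger whatever its Adipoq level, so these values do not bear on adipocytes. Of 8 macrophage genes all 8 were above 0 in the knockdown (median 0.38) and 5 were below 0 in the overexpression (median -0.29), with summed levels of 141 to 262 CPM with shLUC, 129 to 342 with shPKLR, 108 to 452 with GFP and 99.0 to 288 with PKLR. Of 8 stellate cell and matrix genes 7 were below 0 in the overexpression (median -0.64) and 6 above 0 in the knockdown (median 0.36). Their summed level was 138 to 203 CPM with shLUC, 117 to 198 with shPKLR, 172 to 395 with GFP and 116 to 221 with PKLR. Hepatocyte genes had medians of 0.04 in the knockdown and -0.03 in the overexpression, the 8 endothelial genes -0.09 and 0.04, and the 5 cholangiocyte genes tested 0.26 and -0.06. By edgeR 0 of these marker genes were called in either experiment, where 0.00641% (knockdown) and 2.03% (overexpression) of all genes were called. At an unadjusted p under 0.05 there were 6 stellate cell and matrix genes in the overexpression, all lower, beside 18.8% of all genes in either direction. There DESeq2 called 4 of that list lower (Col1a2, Col3a1, Dcn and Pdgfrb), Fabp4 lower and Fabp1 higher, and limma-voom called 0 markers in either experiment. In the difference, where 5.5% of all genes were called, edgeR called Col1a2, Col3a1, Des, Marco and Fabp4 with negative values. Of the same lists Lrat, at 0.37, and Cfd, at 0.89, were above 0 there and not called. The part of other cells in the enzyme levels was not tested.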

How the data were processed

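Total RNA of 20 frozen livers was sequenced, 5 for each of the 4 vectors, with a stranded total RNA kit per the labels' protocols. The authors deposited a table of counts for each experiment, in whole numbers per gene without normalization. The submitters' processing notes name HISAT2, DESeq2, GRCm38 and mm10, without versions; how reads were assigned to genes, and with which strand setting, is not given in the sources used here, so reads of overlapping genes on opposite strands may not be separated. Column names gave the library of every column. Symbols, positions and exonic lengths came from GENCODE M21 (GRCm38), which matched 26912 of 27052 identifiers in the knockdown and 26146 of 26286 in the overexpression.

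Each experiment was fitted over all its genes by the robust quasi-likelihood test of edgeR 4.0.16, run in R 4.3.3, with TMM scaling of the genes kept by filterByExpr, and genes were called at a Benjamini-Hochberg adjusted p of 0.05. The difference is the contrast of the overexpression effect less the knockdown effect in 1 fit of all 20 libraries on genes in both tables. An adjusted p with no tool named comes from these edgeR fits. Standard errors were taken from the F statistic (log2 fold change over its root); 95% intervals are 1.96 SE either side. CPM are counts per 1000000 with TMM scaling over all 20 libraries, and TPM are counts per exonic length scaled to the same sum. Correlations used log2 CPM with a prior count of 2. Alternatives were RLE scaling, no filter, keeping only genes above 1 CPM in 5 or more libraries, limma-voom (limma 3.58.1), DESeq2 1.42.0, replicate number as a block, removal of mitochondrial and rRNA genes, 1 fit of all libraries, shPKLR replicate 4 thinned to 33392690 counts, and leaving out single libraries. The fits were also run on simulated data, whose outcome is not reported here and is not used as support.

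No 2 replicates were alike within sampling noise: over 40 pairs the lowest chi-square per degree of freedom was 26.8. The members and gene lists were chosen with earlier results of these data known. Named genes were all members, the called genes of each list or else the 4 with the smallest p, Srebf1, Mlxipl, Pparg and Pklr, and the 3 genes most like each member; genes overlapping a member's exons, and single markers, were named after their values were seen.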

Additional observations from a re-analysis of the deposited data

Results flagged for a closer look

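In each group of 5 livers the highest and the lowest liver were compared with the rest by Dixon's test at its 95% critical value, over 56 groups of values from the 9 enzyme genes, Pklr and the 4 enzyme ratios. Chance flags about 1 in 20 such groups, and 3 were found, all in PKLR livers. Gpat4 in PKLR replicate 1, at 111 CPM, stood above the other 4 PKLR livers, with a gap of 0.797 of the group's range; it was still below every GFP liver. Pklr in PKLR replicate 4, at 378 CPM, stood below the other PKLR livers (0.731 of the range). The ratio of Gpam over Gpat4 in PKLR replicate 5, at 0.967, stood below the others (0.725 of the range); Gpam in that liver was at 93.1 CPM.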

How the results depend on the processing

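Beside the values in the text, the counts of called genes moved with the setting. In the knockdown, 1 gene was called as reported, 7 with RLE scaling, 17 with no filter, 260 with DESeq2, 8 with limma-voom, 3 with the replicate block, 7 without mitochondrial and rRNA genes, 114 in 1 fit of all libraries, and 1 to 12 with 1 library left out; of the members, DESeq2 called 2 and the other settings 0. In the overexpression, 322 genes became 1107 with DESeq2, 544 with the replicate block and 128 to 469 with 1 library left out, and the 1 member became 2 with DESeq2 and 1 to 2 with 1 library left out (2 without PKLR replicate 5). In the difference, 902 genes became 1614 with DESeq2 and 485 to 1384 with 1 library left out, and the 3 members became 4 with DESeq2 (Gpat4 added, adjusted p = 0.047), 5 with the replicate block (Gpat4 and Lpin1 added, adjusted p = 0.040 each) and 2 to 4 with 1 library left out. The members' median ran from -0.58 to -0.39 in the knockdown and from 0.021 to 0.24 in the overexpression with 1 library left out. The knockdown value of Gpat4 was -0.012 with limma-voom, -0.020 with the replicate block and -0.10 to 0.21 with 1 library left out; that of Dgat1 was -0.0074 to 0.16, and the overexpression value of Agpat3 -0.066 to 0.020, with 1 library left out. The cause was not tested. The replicate numbers did not pair the samples: deviations of same-numbered livers correlated between -0.20 and 0.35 in the knockdown and between -0.11 and 0.26 in the overexpression, and 2 and 3 of 10 livers correlated best with their own number, so the block shares only a number. Depth limits Mogat1 most, with as few as 19 counts in a library.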
